A study of Rattus norvegicus with 12 samples.

Results

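The genes described here encode the subunits of the respiratory chain and of ATP synthase, the protein complexes of oxidative phosphorylation in the inner mitochondrial membrane. They were chosen by name and chromosome from the deposited table of read counts: symbols beginning with Nduf followed by a, b, c, s or v and a digit, symbols beginning with Uqcr, Cox4i, Cox5, Cox6, Cox7, Cox8 or Atp5, the symbols Sdha, Sdhb, Sdhc and Sdhd, and the protein-coding genes of the mitochondrial chromosome, called MT genes below. This rule found 97 of the 24102 genes in the table, of which 84 are nuclear and 13 are MT. A minimum of 10 reads summed over the 12 samples left 91 of the 97 for testing, 78 nuclear and 13 MT, among 19061 genes tested in all. The other 6 were Atp5hl1, Cox6c1, Ndufv3-ps1, a copy of Ndufa13 on chromosome 7 and pseudogene copies of Uqcr10 and Cox7a2, which held 0 to 8 reads each, too few for any difference to be detectable.

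Oxidative phosphorylation passes electrons from NADH and succinate along complexes I to IV to oxygen, and complex V, the ATP synthase, uses the proton gradient that complexes I, III and IV build to make ATP. Most subunits are encoded in the nucleus and imported, while a small set of core subunits of complexes I, III, IV and V is encoded by mitochondrial DNA, which is transcribed from both strands as long precursors that are processed into separate RNAs. Neurons depend on this pathway for most of the ATP that drives ion pumping and synaptic transmission.

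The RNA was polyadenylated RNA from the brains of male Sprague Dawley rats, taken 3 days after an intracerebral hemorrhage (ICH) made by injecting the animal's own blood into the striatum of the left hemisphere. The samples form 4 groups of 3: the ICH hemisphere and the contralateral, right hemisphere of rats aged 13 months, and the ICH and contralateral hemispheres of rats aged 22 months. The sample labels give 21 months for the older rats where the protocol gives 22. The contralateral hemisphere of an injured brain stood in for an uninjured one, no sham injection was among the samples, and whole tissue was sequenced, so that fewer cells of a type and less RNA per cell cannot be told apart.

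Depth ran from 21060355 to 41262330 reads on genes. The 13-month contralateral samples 1 to 3 held 26642443, 26211415 and 21060355 reads, and the 13-month ICH samples held 28182156, 27441008 and 28225011. The 22-month contralateral samples held 26150365, 41262330 and 23052179 reads, and the 22-month ICH samples held 27612422, 23814430 and 28072003. Levels of 1 gene across samples are given below as CPM, read counts scaled to library size with TMM factors, and levels of different genes are compared as deposited FPKM, which also divide by gene length.

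A pair of libraries stood apart from the rest of their groups. Results for the oxidative phosphorylation genes that rest on them are mostly given with and without them, and those for the marker lists only in part. In 13-month contralateral sample 2, all 13 MT genes were at their lowest level of the 12 samples, at 0.368% (Mt-nd2) to 30.1% (Mt-nd6) of the geometric mean of the other 2 samples of its group, taken after 0.5 CPM was added to each value. Of all genes with a mean of at least 10 CPM, 22.6% were also at their lowest in that sample and 20.1% at their highest. In 13-month ICH sample 1 these shares were 14.8% and 22.3%, and in the other 10 samples they were at most 15.4% and 10.8%. Sample 2 further held 2831 reads of Th and 2635 of Slc6a3, genes of dopamine neurons picked after their values were seen. Of these genes 22-month ICH sample 3 held 1302 and 1595 reads, 22-month contralateral sample 1 held 500 and 624, and the other 9 samples, those of its group included, held at most 85 and 8. The library 22-month ICH 2 went against its label: the markers of infiltrating myeloid cells summed to 106 CPM there, against 663 to 3522 CPM in the other 5 ICH samples and 64.5 to 226 CPM in the 6 contralateral samples. Its microglia and macrophage markers summed to 599 CPM, within the range of 418 to 941 CPM in the contralateral samples.

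The labelled tissue, brain, was borne out by its markers. The 12 neuron markers, of which Snap25 was the most abundant, summed to between 5295 and 10537 CPM in the 12 samples, the 7 astrocyte markers, led by Gfap, to between 3872 and 7574 CPM, and the 7 oligodendrocyte markers, led by Mbp, to between 6436 and 18882 CPM, the highest in 13-month contralateral sample 2. The 8 markers of striatal projection neurons, led by Ppp1r1b, summed to between 260 and 456 CPM in the 6 samples of the younger rats and to between 672 and 1670 CPM in the 6 samples of the older rats, so that these groups did not overlap.

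The 91 genes covered a wide range of levels, with the MT genes at the top. The most abundant was Mt-co1, which encodes the core subunit of complex IV that reduces oxygen, at a mean of 13361 FPKM over the 12 samples, followed by the ATP synthase genes Mt-atp6 at 8006 FPKM and Mt-atp8 at 7638 FPKM. The lowest MT gene was Mt-nd6, a complex I gene and the only one of the 13 on the light strand, at 204 FPKM. The highest nuclear genes, Cox4i1 of complex IV and Atp5b, the catalytic beta subunit of ATP synthase, reached 612 and 553 FPKM, below 12 of the 13 MT genes.

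**Figure D1:**
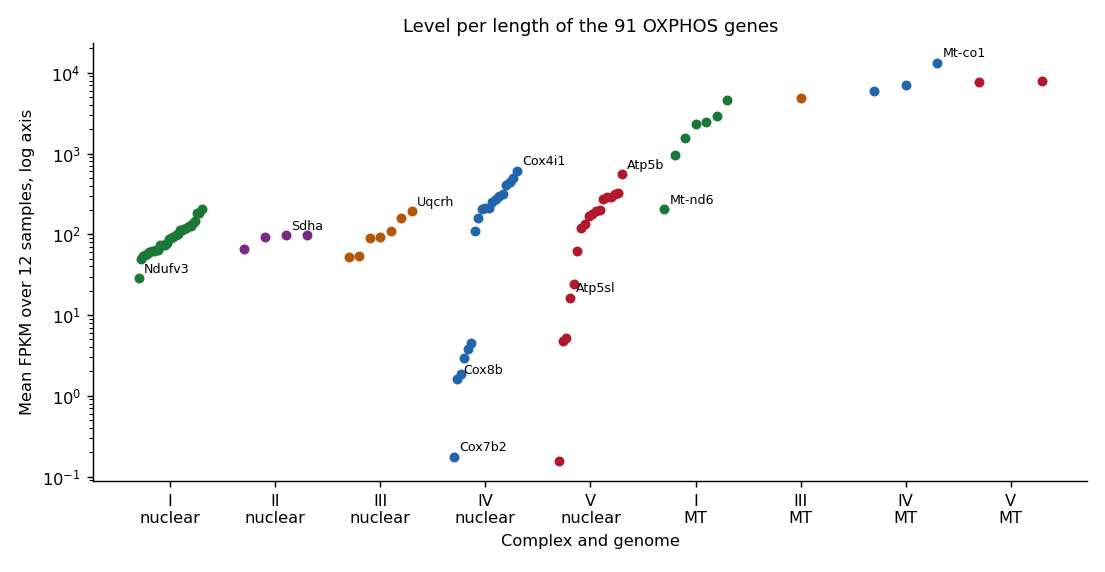
Mean FPKM over the 12 samples on a log axis (vertical) for each of the 91 genes, placed by complex and by genome (horizontal); each point is 1 gene. Mt-co1 stands highest at 13361 FPKM and Cox7b2 at 0.177 FPKM is among the lowest.

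Within complex I, the NADH dehydrogenase, 30 nuclear and 7 MT genes were tested, and the highest nuclear members were Ndufb8 at 207 FPKM and Ndufa13 at 184 FPKM. Complex II, succinate dehydrogenase, has no MT subunit, and its 4 nuclear genes included Sdhc, a membrane anchor, at 98.0 FPKM and Sdha, the flavoprotein that oxidizes succinate, at 97.9 FPKM. Complex III, the cytochrome c reductase, had 7 nuclear genes, led by Uqcrh at 192 FPKM and Uqcr10 at 160 FPKM, and 1 MT gene, Mt-cytb, which encodes cytochrome b, at 4919 FPKM. Complex IV had 19 nuclear and 3 MT genes, counting Ndufa4, now placed in that complex, and Cox7a2l, a factor of respiratory supercomplexes. Complex V had 18 nuclear and 2 MT genes, 2 of the 18, Atp5s and Atp5sl, being named like subunits without being subunits of the synthase.

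The tissue isoforms of complex IV were far apart. Cox4i1, the common form, stood at 612 FPKM and the lung form Cox4i2 at 1.86 FPKM. Cox6a1 stood at 496 FPKM and the heart and muscle form Cox6a2 at 4.54 FPKM, and Cox8a stood at 449 FPKM and the heart and muscle form Cox8b at 1.60 FPKM. The testis form Cox6b2 was at 2.91 FPKM, while the common form Cox6b1 was listed as 2 near-identical genes on chromosomes 1 and 2, at 212 and 319 FPKM, between which uniquely placed reads may be divided in a way the files do not show. Atp5f1 was listed as 2 genes on chromosome 2, and the reads of the first ran from 13 to 1061 within the 13-month ICH group and from 12 to 882 within the 22-month contralateral group, so that its values are uncertain.

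Each nuclear gene has its own promoter, and motifs named in the literature for respiratory genes could be looked for there. RefSeq promoters of the GRCr8 build, 250 bases before to 50 bases after the gene start, were matched to 69 of the 78 nuclear genes, as 67 different promoters. Searched on both strands, the NRF1 motif GCGCANGCG was in 15 of the 67 (22.4%) and in 6.26% of all 27457 promoters, the ETS motif CCGGAAG, of the family of GABPA, in 19 (28.4%) and 9.22%, and the YY1 motif AAGATGG in 17 (25.4%) and 7.3%. A match is a description, not a site or a cause, and a window without one says only that these letters are not in it. The 4 stretches below, with the motif or motifs in capitals, are from abundant subunits of complexes IV and V and show each motif once or more.
Atp5g2: ggctctagtcGCGCATGCGCagagccttct
Atp5l: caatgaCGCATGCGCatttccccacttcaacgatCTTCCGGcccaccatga
Cox5b: ctgtctgttcCCGGAAGtgcatct
Cox6b1: tccctgccctCCATCTTtctgtgttga

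The Atp5g2 stretch, with an NRF1 match, lies at chr7:135678255-135678284 on the minus strand of GRCr8, and the Atp5l stretch, with an NRF1 and an ETS match, at chr8:54130607-54130657 on the minus strand. The Cox5b stretch, with an ETS match, lies at chr9:46417813-46417836 on the plus strand, and the Cox6b1 stretch, with a YY1 match, at chr1:95009985-95010011 on the minus strand. Of the 67 promoters, 40 held at least 1 of the motifs and 2 held each of the 3. The median log2 fold change between hemispheres, averaged over both ages, was -0.02 in the genes with an NRF1 match and -0.02 in those without, -0.01 and -0.04 for the ETS motif, and -0.06 and -0.01 for the YY1 motif.

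MT genes took a large and variable share of the reads, and nuclear genes a small and steady one. The 13 MT genes held 9.34%, 0.608% and 6.94% of gene reads in the 13-month contralateral samples 1 to 3, with an exact (Clopper-Pearson) 95% interval of 0.605% to 0.611% for sample 2, and 6.52%, 6.94% and 8.30% in the 13-month ICH samples. They held 8.88%, 10.8% and 11.3% in the 22-month contralateral samples and 7.92%, 10.2% and 9.55% in the 22-month ICH samples. Apart from 13-month contralateral sample 2, the samples of the 2 hemispheres overlapped at each age. By sample number, ICH lay below contralateral each time at 22 months and went both ways at 13 months. The labels do not say that equal numbers share a rat. Such intervals cover counting error only, and the spread between samples is far wider.

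The mean MT share was 5.63% ± 4.51 (SD, n = 3) in the 13-month contralateral group, or 8.14% ± 1.70 over the 2 samples left without sample 2, and 7.25% ± 0.933 (SD, n = 3) in the 13-month ICH group. It was 10.3% ± 1.28 (SD, n = 3) and 9.22% ± 1.17 (SD, n = 3) in the 22-month contralateral and ICH groups, the latter 8.74% ± 1.15 without sample 2. The mean for ICH was therefore above the contralateral mean at 13 months with all samples and below it without contralateral sample 2. No test was made of these summed shares.

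The 84 nuclear genes held 1.16%, 1.47% and 1.32% of gene reads in the 13-month contralateral samples and 1.26%, 1.25% and 1.38% in the 13-month ICH samples. They held 1.32%, 1.22% and 1.34% in the 22-month contralateral samples and 1.28%, 1.22% and 1.25% in the 22-month ICH samples. The 4 groups overlapped, and 13-month contralateral sample 2, lowest for MT reads, was highest for nuclear reads as a share of all gene reads. With MT genes out of the denominator its nuclear share was 1.48%, below 1.54% in 22-month contralateral sample 3 and 1.52% in 13-month ICH sample 3. Reads on MT genes outnumbered those on nuclear ones 5.16 to 8.92 times in 11 samples, and stood at 0.415 of them in 13-month contralateral sample 2.

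**Figure D2:**
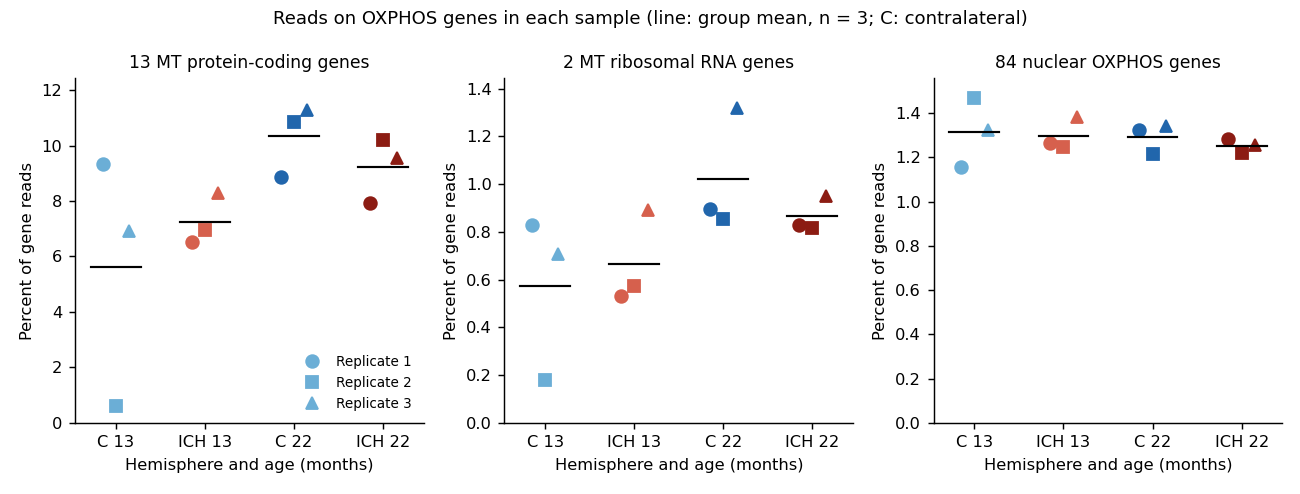
Percent of gene reads in each sample (vertical) by hemisphere and age (horizontal; C, contralateral) for the 13 MT protein-coding genes, the 2 MT ribosomal RNA genes and the 84 nuclear genes; points are samples, marked by replicate, and lines are means of 3. In 13-month contralateral replicate 2 the MT share was 0.608% and the nuclear share 1.47%.

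The 13 MT genes were not low to the same degree in 13-month contralateral sample 2. Mt-nd2, a complex I gene, stood at 12.3 CPM there against 5370.0 and 2241 CPM in samples 1 and 3 of the group. Mt-atp6, a subunit of the proton channel of ATP synthase, stood at 85.0 CPM against 8789 and 5491 CPM. Mt-co1 stood at 3508 CPM against 35672 and 31591 CPM, which is 10.5% of their geometric mean, and Mt-nd6 at 39.0 CPM against 194 and 87.8 CPM.

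The make-up of the MT reads therefore differed in that sample as well as their number. Mt-co1 was 63.9% of MT protein-coding reads there and 31.3% to 45.2% in the other 11 samples, Mt-nd6 was 0.711% against 0.126% to 0.226%, and Mt-nd2 was 0.223% against 3.21% to 6.36%. The 2 MT ribosomal RNA genes held 0.179% of gene reads in that sample and 0.533% to 1.32% in the other 11.

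**Figure D3:**
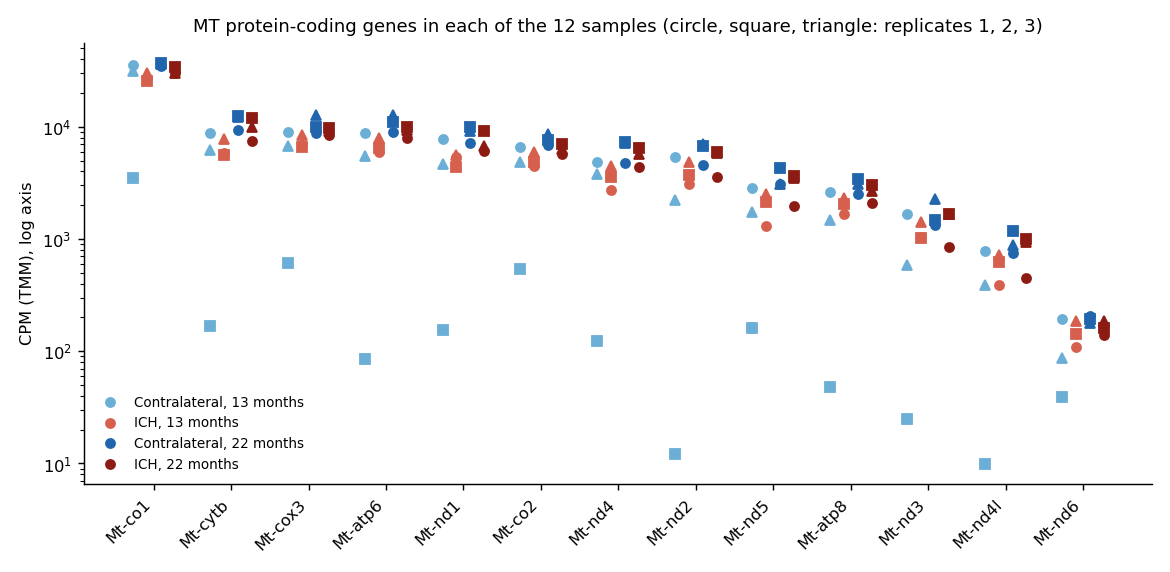
Level of each MT protein-coding gene (horizontal) in CPM on a log axis (vertical) in the 12 samples, coloured by group, with circle, square and triangle for replicates 1, 2 and 3. The lowest point for each of the 13 genes is 13-month contralateral replicate 2, at 12.3 CPM for Mt-nd2 and 3508 CPM for Mt-co1.

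Nuclear genes of the pathway also spread in that sample, in both directions. Of the 71 nuclear genes with a mean of at least 10 CPM, 24 (33.8%) were at their lowest of the 12 samples in it and 20 (28.2%) at their highest. Sample 1 of the same group was the lowest for 17 (23.9%), and 22-month contralateral sample 3 the highest for 19 (26.8%). The lowest nuclear gene relative to the other 2 samples was Cox7b, a small X-linked subunit of complex IV, at 25.3 CPM against 112 and 113 CPM. Ndufb10 of complex I and Cox5b of complex IV stood at 52.4% and 52.7% of the geometric mean of the other 2, and Ndufs7, which carries an iron-sulfur cluster of complex I, and Sdhc at 155% each.

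**Figure D4:**
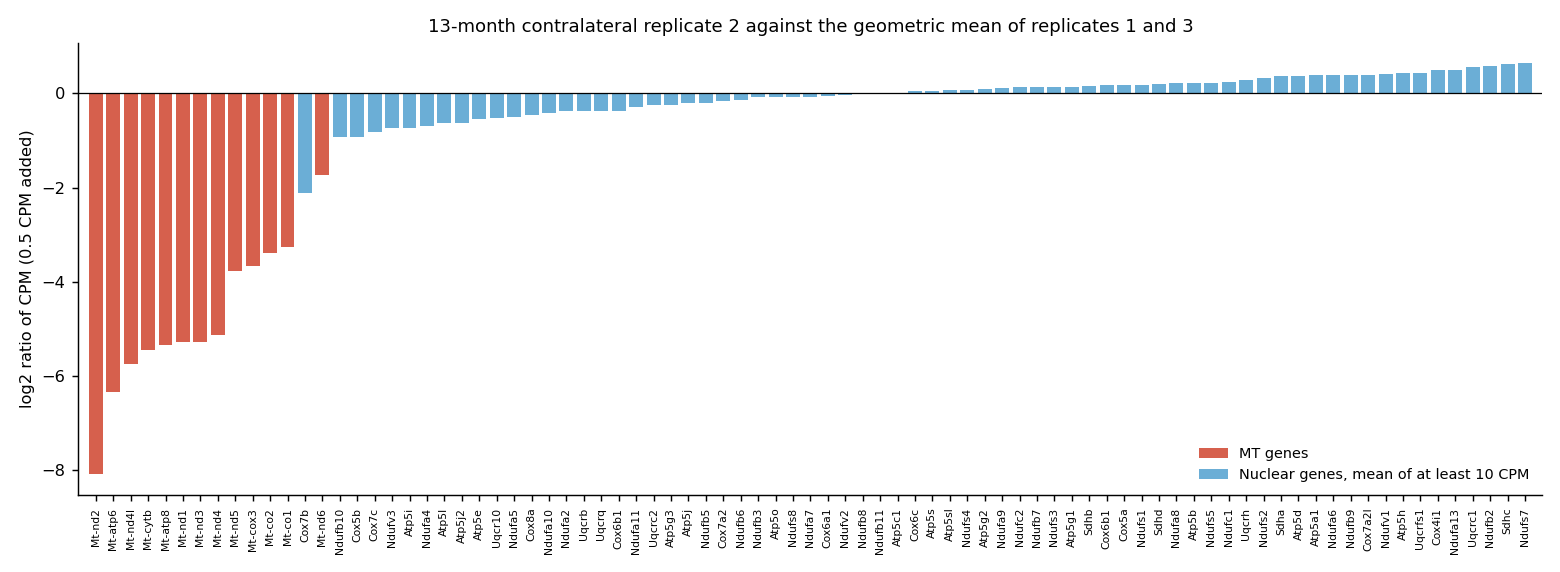
log2 ratio of CPM in 13-month contralateral replicate 2 to the geometric mean of replicates 1 and 3, with 0.5 CPM added to each (vertical), for the 13 MT genes and the nuclear genes with a mean of at least 10 CPM, ordered by the ratio (horizontal); bars are genes, and the 2 genes named Atp5f1 are not drawn. The MT genes run from -8.09 for Mt-nd2 to -1.73 for Mt-nd6.

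The first comparison asked how the ICH hemisphere differed from the contralateral one, averaged over both ages. No gene of oxidative phosphorylation passed an adjusted p of 0.05. In the edgeR fit over all genes, 0 of the 91 passed, where 5.44% of all genes tested did; 3 passed an unadjusted p of 0.05, where 24.4% of all genes did. DESeq2, which called 13.6% of all genes, and limma on FPKM, which called 0% or 0.00525%, also called 0 of the 91, with 6 by DESeq2 and 6 or 5 by limma, depending on the number added before the logarithm, under an unadjusted p of 0.05. The nuclear genes lay close to 0, with a median log2 fold change of -0.03 and 31 of 78 above 0, though 45 of 78 lay above 0, with a median of 0.02, by limma on FPKM. The MT genes had a median of 0.10 with 13 of 13 above 0, or 12 of 13 by DESeq2 and with its size factors, and of 0.66 or 0.67 with 13 of 13 above 0 by limma on FPKM. The median of all genes tested was 0.0046, with 9632 of 19061 above 0.

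The nuclear values were narrow enough to bound the differences. Of the 71 nuclear genes with a mean of at least 10 CPM, 69 had a 95% interval within a 1.5-fold difference either way, and 70 within a 2-fold one. Of the 13 MT genes, 0 had an interval within 1.5-fold and 3 within 2-fold. The median standard error was 0.0977 for these nuclear genes and 0.582 for the MT genes, and 0.189 for the MT genes without 13-month contralateral sample 2.

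**Figure D5:**
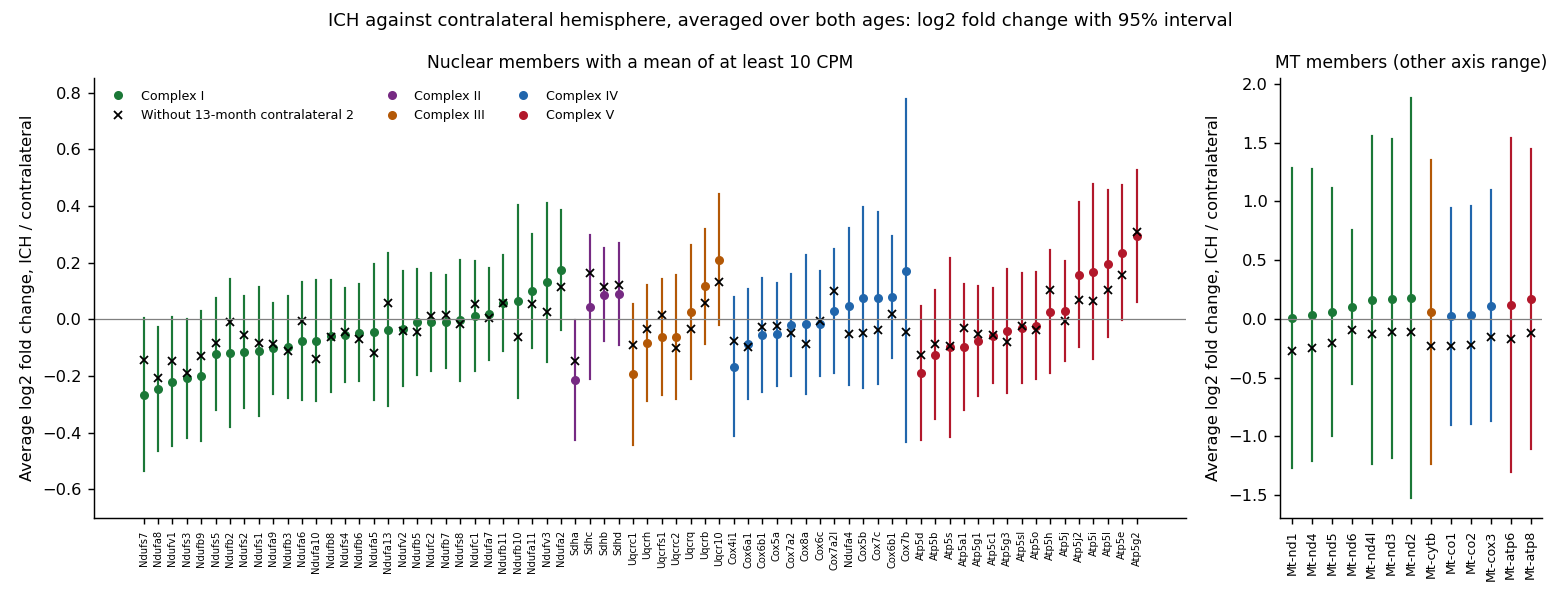
log2 fold change of ICH over contralateral hemisphere averaged over both ages (vertical), with its 95% interval, for nuclear genes with a mean of at least 10 CPM and for MT genes (horizontal), coloured by complex; crosses give the value without 13-month contralateral replicate 2. Atp5g2 has the highest nuclear value, 0.29, and the 13 MT values lie above 0 with all samples (12 of 13 with DESeq2 size factors) and below 0 without that replicate; the first gene named Atp5f1 is not drawn.

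The genes nearest to the threshold had small differences. Atp5g2, one of the genes for the membrane ring subunit of ATP synthase, stood at 142, 155 and 147 CPM in the 13-month contralateral samples and 223, 179 and 164 CPM in the 13-month ICH samples. It stood at 142, 139 and 173 CPM in the 22-month contralateral samples and 203, 155 and 175 CPM in the 22-month ICH samples. The hemispheres did not overlap at 13 months and overlapped at 22 months. Its average log2 fold change was 0.29 ± 0.11 (SE), with an adjusted p of 0.119, and over the alternatives the adjusted p ran from 0.0570 to 0.266.

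Ndufa8, an accessory subunit of complex I, stood at 198, 233 and 201 CPM in the 13-month contralateral samples and 175, 154 and 215 CPM in the 13-month ICH samples. It stood at 217, 205 and 248 CPM in the 22-month contralateral samples and 191, 189 and 175 CPM in the 22-month ICH samples. The ICH samples lay below the contralateral ones at 22 months and overlapped with them at 13 months, where they went both ways by sample number. Its average log2 fold change was -0.25 ± 0.10 (SE), with an adjusted p of 0.159. Without 13-month ICH sample 3 it passed, at -0.32 with an adjusted p of 0.0419, the lowest of a range up to 0.336 over the alternatives, in a fit that called 15.4% of all genes.

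Sdha stood at 312, 415 and 334 CPM in the 13-month contralateral samples and 274, 274 and 323 CPM in the 13-month ICH samples. It stood at 352, 325 and 309 CPM in the 22-month contralateral samples and 282, 311 and 298 CPM in the 22-month ICH samples. The hemispheres overlapped at both ages as groups. By sample number, which the labels do not tie to 1 rat, ICH lay below contralateral each time. Its average log2 fold change was -0.21 ± 0.10 (SE), with an adjusted p of 0.198, and -0.15 without 13-month contralateral sample 2. These 3 genes are those under an unadjusted p of 0.05, a number that leaving out 1 library moved: to 11 without 13-month contralateral sample 1, 1 without sample 2 and 7 without sample 3, to 5 without 22-month contralateral sample 3, to 1 without 13-month ICH sample 1 or 2 and 6 without sample 3, and to 6 without 22-month ICH sample 2 and 1 without sample 3.

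By complex, the nuclear medians were small. The median was -0.05 for complex I with 7 of 30 genes above 0, 0.06 for complex II with 3 of 4, -0.06 for complex III with 3 of 7, 0.03 for complex IV with 10 of 19, or -0.0034 with the filterByExpr filter, and -0.03 for complex V with 8 of 18, or 0.02 by limma on FPKM. Among nuclear genes with a mean of at least 1 CPM, Ndufs7 had the lowest value in complex I, -0.27, or -0.14 without 13-month contralateral sample 2, and Ndufa2 the highest, 0.17. In complex III, Uqcrc1, a core subunit, had -0.19 and Uqcr10 0.21, or -0.09 and 0.13 without that sample. In complex IV, Cox4i1 had -0.17 and Cox6b2, at a mean of 1.95 CPM, had 0.62. In complex V the lowest was the first gene named Atp5f1, whose values are uncertain, at -0.41, followed by Atp5d at -0.19, and Atp5b, the most abundant, had -0.12. Under that minimum, Cox8b, at a mean of 0.720 CPM, had 0.76 and the second gene named Atp5f1, at 0.454 CPM, had 0.79.

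The sign of these medians near 0 was not firm. The nuclear median was -0.03 with all samples and 0.0052 without 22-month contralateral sample 3 and 0.0071 without 13-month ICH sample 2. It was -0.05 without 13-month contralateral sample 1 or 13-month ICH sample 3, -0.07 without 22-month contralateral sample 2, -0.01 without 13-month contralateral sample 3 and -0.02 without 13-month ICH sample 1. The MT median was 0.10 with all samples and 0.42 without 13-month contralateral sample 1, with 13 of 13 above 0, but -0.17 without sample 2 of that group, with 0 of 13 above 0. Without 13-month ICH samples 1 and 3, each in turn, it was 0.16, with 12 of 13 above 0, and -0.0034, with 6 of 13. It was 0.05 without 22-month contralateral sample 1, with 9 of 13 above 0, and 0.06 and 0.05 without 22-month ICH samples 2 and 3, with 7 and 13 of 13. Without both libraries that stand apart the MT median was -0.22, with 0 of 13 above 0, and the nuclear median was -0.03, with 30 of 78 above 0.

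No single MT gene passed in the average of both ages. With all samples their log2 fold changes ran from 0.01 for Mt-nd1 to 0.18 for Mt-nd2, and the lowest adjusted p was 0.868. Without 13-month contralateral sample 2 they ran from -0.28 for Mt-nd1 to -0.10 for Mt-nd6, with standard errors of 0.15 to 0.29 and a lowest adjusted p of 0.356, and without both libraries that stand apart the lowest adjusted p was 0.196. Mt-co1 stood at 27227, 25712 and 30279 CPM in the 13-month ICH samples, below samples 1 and 3 of the contralateral group and above sample 2. It stood at 35114, 37214 and 36353 CPM in the 22-month contralateral samples and at 30359.6, 34389 and 30329.9 CPM in the 22-month ICH samples, where the hemispheres did not overlap, with a log2 fold change of -0.19 ± 0.60 (SE) at that age. That SE also draws on the spread of 13-month contralateral sample 2, which is in neither group, and its value without that sample is not given.

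Other lists of mitochondrial genes stand beside the 5.44% of all genes that passed and the 24.4% under an unadjusted p of 0.05. Of 35 assembly factors of the complexes, 0 passed in the average of both ages by edgeR, with 3 under an unadjusted p of 0.05 and a median log2 fold change of -0.09. The examples are Cox16, needed to build complex IV, at 0.34 (adjusted p 0.117), and Ttc19 of complex III at -0.30 (adjusted p 0.226). Of 19 genes of the TCA cycle and pyruvate dehydrogenase, 0 passed and 2 were under an unadjusted p of 0.05, with a median of -0.09, Idh2 at 0.39 and Sucla2 at -0.25. Of 21 genes of mitochondrial biogenesis and mtDNA expression, 0 passed and 5 were under an unadjusted p of 0.05, with a median of 0.04. Ssbp1, which binds single-stranded mtDNA, was at 0.52 (adjusted p 0.0901) and Gabpa, a regulator of respiratory genes, at 0.44 (adjusted p 0.0657). Over the alternatives Ssbp1 passed in 4 settings, Gabpa and Idh2 in 2 each and Cox16 in 1.

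Calls among genes that feed or bypass the chain stand beside the 5.44% of all genes that passed. Of 21 carriers and cytochrome c genes, 1 (4.76%) rose, Ucp2, an inner-membrane carrier abundant in myeloid cells, at 1.71 ± 0.36 (SE, adjusted p 0.0348), with Slc25a13, an aspartate-glutamate carrier, at 0.58 and Ckmt1b, a mitochondrial creatine kinase, at -0.53, both short of the threshold. Slc25a13 passed in 2 of the alternative settings. Of 26 genes of glycolysis and lactate transport, 3 (11.5%) rose: the hexokinases Hk2 at 1.31 and Hk3 at 5.02, and Slc16a3, a lactate exporter, at 2.20. The medians of these lists were -0.06 and -0.06. Protein-coding genes whose symbols begin with Rpl or Rps and a digit are called cytosolic ribosomal protein genes here. They were taken by name alone, so that genes of other proteins with such names may be among them. Of these 99 genes, 6 (6.06%) rose, with 91 above 0 and a median of 0.43. Under an unadjusted p of 0.05 were 8 of the carriers, 4 of them higher in ICH, 10 of the glycolysis genes, 4 of them higher, and 60 of the ribosomal protein genes, 58 of them higher, beside 24.4% of all genes.

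Cell type markers in the average of both ages stand beside these values. Of 12 neuron markers, 0 passed by edgeR, with 4 under an unadjusted p of 0.05 and 0 above 0, and a median of -0.38; their summed level was 9178, 6250.3 and 10509 CPM in the 13-month contralateral samples, 5295, 5574 and 8051 CPM in the 13-month ICH samples, 10537, 9046 and 7772 CPM in the 22-month contralateral samples, and 6715, 8233 and 6201 CPM in the 22-month ICH samples. Of 10 microglia and macrophage markers, led by Csf1r, 9 rose, with a median of 1.43 and summed levels of 941, 642 and 418 CPM, 2433, 2056 and 993 CPM, 423, 509 and 419 CPM, and 2007, 599 and 1302 CPM in the same order of groups. Of 10 infiltrating myeloid markers, led by Lyz2, 5 rose, with a median of 3.62, or down to 1.97 over the other scalings and tests. Their part in the values of the oxidative phosphorylation genes was not tested.

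The remaining marker lists in the average of both ages gave 3 calls. Of 7 astrocyte markers 1 rose, Gfap at 1.35, and of 6 choroid plexus markers 2 rose, Aqp1 at 2.03 and Kcnj13 at 2.28, with medians of -0.0080 (0.05 by limma on FPKM) and 2.56 (down to 1.64 over the other scalings and tests). By edgeR, 0 passed of 8 striatal projection neuron markers (median -0.34), 7 oligodendrocyte markers (0.11), 5 endothelial markers (0.40), 7 erythroid markers (-0.18) and 8 skeletal and cardiac muscle markers (-0.26), with 0, 1, 1, 1 and 2 of them under an unadjusted p of 0.05.

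The calls in these lists depended on single libraries. The number of all genes called, 1036, was 0 without any one of 13-month contralateral samples 2 or 3, 22-month contralateral samples 1, 2 or 3, 13-month ICH samples 1 or 2, and 22-month ICH samples 1 or 3. It was 461 without 13-month contralateral sample 1, 2940.0 without 13-month ICH sample 3 and 2323 without 22-month ICH sample 2, and 2902 without both libraries that stand apart. The number of the 91 genes of oxidative phosphorylation called was 0 in each of these fits except without 13-month ICH sample 3, where it was 1.

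At 13 months, the study's own contrast between hemispheres gave no call by edgeR at an adjusted p of 0.05, for the genes of oxidative phosphorylation or for any other. This threshold is not that of the paper, which selected genes by p-value and fold change. Of the 91, 0 passed, where 0% of all genes did, and 10 were under an unadjusted p of 0.05, a smaller share than the 21.0% of all genes that were. These 10 were all nuclear and all had higher fitted values in ICH. DESeq2 called 2 of the 91, where it called 8.61% of all genes, with 10 under an unadjusted p of 0.05, and limma called 0, where it called 0% of all genes, with 12 or 11. The nuclear median was 0.05, or 0.03 by DESeq2 and 0.09 by limma on FPKM, with 45 of 78 above 0 and 41 to 52 over the other scalings and tests. The MT median was 0.43, or 1.54 by limma on FPKM, with 13 of 13 above 0, beside a median of 0.0073 over all genes.

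Complex V held 5 of the 10. Atp5e, the epsilon subunit in the stalk of ATP synthase, stood at 132, 92.0 and 136 CPM in the 13-month contralateral samples and 182, 164 and 178 CPM in the 13-month ICH samples. The hemispheres did not overlap, and contralateral sample 2 was the lowest. Its log2 fold change was 0.54 ± 0.16 (SE), with an adjusted p of 0.117 by edgeR, or 0.38 and 0.199 without contralateral sample 2. DESeq2 called it, at 0.51 with an adjusted p of 0.0275, the lowest of a range up to 0.367 over the alternatives.

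The other 4 of complex V were Atp5i at 0.54, Atp5l at 0.46, Atp5j2 at 0.43 and Atp5g2 at 0.35, of which the first 3 are small subunits of the membrane part of the synthase. Without 13-month contralateral sample 2 these values were 0.33, 0.28, 0.25 and 0.39. In complex I the genes were Ndufa2 at 0.43 and Ndufa11 at 0.37, or 0.31 and 0.28 without that sample, and in complex III Uqcr10 at 0.41 and Uqcrb at 0.30, or 0.26 and 0.18.

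The 10th gene was Cox8b of complex IV, which had few reads. It stood at 0.535, 0.207 and 0.430 CPM in the 13-month contralateral samples and 1.01, 1.61 and 1.80 CPM in the 13-month ICH samples. The hemispheres did not overlap. Its log2 fold change was 1.91 ± 0.57 (SE), with an adjusted p of 0.120, and 1.60 without contralateral sample 2. DESeq2 called it at 1.90 with an adjusted p of 0.0346, the lowest of a range up to 0.367 over the alternatives.

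Single libraries moved the 13-month values. The number of the 91 under an unadjusted p of 0.05 was 6 without 13-month contralateral sample 2, Ndufa2, Sdhc, Cox8b, Atp5e, Atp5g2 and Atp5l, while without samples 1 and 3 of that group, each in turn, there were 17 and 16. The MT median was -0.10 without contralateral sample 2, with 3 of 13 above 0, but 1.10 without contralateral sample 1 and 0.24 without ICH sample 3, with 13 of 13 above 0 in both. The nuclear median was -0.03 without contralateral sample 1, -0.0022 without ICH sample 3 and 0.10 without ICH sample 2. The number of all genes called at this age, 0 with all samples, was 2049 without ICH sample 3, 230 without 22-month ICH sample 2 and 3 without both libraries that stand apart, and 0 of the 91 were called in these fits.

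The medians of the marker lists at 13 months lay on the same sides of 0 as in the average, that of oligodendrocytes excepted, and 0 markers passed by edgeR. Of 10 microglia and macrophage markers 9 were under an unadjusted p of 0.05, with a median of 1.33, of 10 infiltrating myeloid markers 7, with a median of 3.68 (down to 2.20 over the other scalings and tests), and of 6 choroid plexus markers 6, with a median of 3.44. Neuron markers had a median of -0.34 with 0 of 12 above 0 and 2 under that p, and oligodendrocyte markers had -0.24, or 0.20 without 13-month contralateral sample 2, with 0 under it. Of the 99 ribosomal protein genes 61 were under it, with a median of 0.64. Their part in the 13-month values of the oxidative phosphorylation genes was not tested.

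At 22 months, most genes of the pathway had lower fitted values in ICH than in the contralateral hemisphere, by small amounts. Of the 78 nuclear genes 9 were above 0, or 8 to 19 over the other scalings and tests, with a median of -0.11, or -0.04 by limma on FPKM, and 0 of 13 MT genes were above 0, with a median of -0.24. All genes tested had a median of 0.0039 with 9622 of 19061 above 0, and the 10278 genes with a mean of at least 10 CPM had a median of -0.04 with 4286 above 0. By edgeR, 0 of the 91 passed, where 0% of all genes did, and 0 were under an unadjusted p of 0.05, where 7.32% of all genes were. DESeq2, which called 1.10% of all genes, and limma, which called 0% or 0.00525%, called 0 as well, with 0 under an unadjusted p of 0.05.

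By complex, the nuclear medians at 22 months are given as a description, since no test compared the complexes. The median was -0.12 for complex I with 1 of 30 above 0, -0.10 for complex III with 1 of 7, -0.11 for complex IV with 3 of 19 and -0.11 for complex V with 1 of 18. The 4 genes of complex II had a median of 0.04 with 3 above 0 and Sdha at -0.15, and 0 of them were under an unadjusted p of 0.05. Ndufa8 had the lowest adjusted p, 0.743, at -0.27 ± 0.14 (SE). Cox4i1 had -0.14, Atp5g2, the 1 gene above 0 in complex V, had 0.23, and Uqcrq, a small subunit of complex III, had -0.22.

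Without 22-month ICH sample 2, the library with myeloid markers at the contralateral level, the nuclear median was -0.10 with 10 of 78 above 0 and the MT median -0.36. The MT median was -0.37 without 22-month contralateral sample 1 and -0.08, with 2 of 13 above 0, without 22-month ICH sample 1, and the nuclear genes above 0 numbered 21 of 78 without 22-month contralateral sample 3, with a median of -0.08. The number under an unadjusted p of 0.05 was 1 in place of 0 without 13-month contralateral sample 2 (Cox7b, at -0.24), 22-month contralateral sample 3, 13-month ICH sample 3 or 22-month ICH sample 3. The number of all genes called at this age, 0 with all samples, was 137 without 22-month ICH sample 2 and 61 without both libraries that stand apart, and 0 of the 91 were called in these fits. Neuron markers had a median of -0.36 at this age with 0 of 12 above 0 and 0 under an unadjusted p of 0.05. The medians were 1.56 for microglia and macrophage markers, 3.19 for infiltrating myeloid markers, 0.38 for oligodendrocyte markers and 1.73 for choroid plexus markers, each list with all its genes above 0 and with 9, 6, 1 and 1 under that p. Over the other scalings and tests the infiltrating myeloid median was as low as 1.85 and the choroid plexus one as low as 0.71. These medians include 22-month ICH sample 2, where the myeloid and choroid plexus markers summed to 106 and 9.18 CPM. Sample 1 held 2693 and 177 CPM, and sample 3 held 995 and 1100 CPM. Medians without sample 2 are not given. By edgeR 0 markers passed at this age, and their part in these values was not tested. Of the 71 nuclear genes with a mean of at least 10 CPM, 66 had a 95% interval within 1.5-fold, and 0 of the 13 MT genes did. The MT intervals at 22 months also draw on the spread of 13-month contralateral sample 2, which is in neither group. The median within-group SD of the MT genes over the 4 groups was 1.55 on the log2 scale, and 0.320 without that sample. Intervals at this age without it are not given.

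The next comparison asked whether the difference between hemispheres itself differed between the ages. The fitted difference at 22 months minus that at 13 months was below 0 for 58 of 78 nuclear and 13 of 13 MT genes, but 0 of the 91 passed by edgeR, where 0% of all genes did, and 8 were under an unadjusted p of 0.05, where 1.57% of all genes were. DESeq2 and limma also called 0, and 0% of all genes, each with 8 under an unadjusted p of 0.05. The test thus shows no gene of the 91 to differ between the ages in its response, and does not show that they respond alike.

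All 8 were nuclear and below 0. In complex V, Atp5i had -0.74, Atp5e -0.61, Atp5j2 -0.55 and Atp5l -0.54. In complex I, Ndufa11 had -0.54 and Ndufa2 -0.52, in complex III Uqcrq had -0.49, and in complex IV Cox8b had -2.30. Each of these except Uqcrq was among the 10 with higher values in ICH at 13 months, and both comparisons use the same 13-month samples. The number was 7 without 13-month contralateral sample 2, 3 without 22-month contralateral sample 3, 4 without 13-month ICH sample 3, and 5 without 22-month contralateral sample 1 or 13-month ICH sample 1.

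The nuclear median of this difference was -0.12 and the MT median -0.64, beside -0.0069 for all genes. By limma on FPKM the MT median was -1.75 or -1.76. Without 13-month contralateral sample 2 the MT median was -0.11, with 5 of 13 above 0, and the nuclear median -0.16, with 8 of 78 above 0, while without sample 1 of that group they were -1.36, with 0 of 13 above 0, and -0.06, with 32 of 78. Without 22-month contralateral sample 3, 30 of 78 nuclear genes were above 0. The ribosomal protein genes had a median of -0.42 and 0 of 99 passed by edgeR, with 6 under an unadjusted p of 0.05. Oligodendrocyte markers had 0.56 with 7 of 7 above 0, or 0.14 without 13-month contralateral sample 2, and choroid plexus markers -1.84 with 0 of 6 above 0, with 0 and 1 under that p. Neuron markers had 0.0053 and microglia and macrophage markers 0.0045, the latter 0.43 without 22-month ICH sample 2. By edgeR 0 markers passed, and their part in this difference was not tested.

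The last comparisons set the older rats against the younger within a hemisphere. In the contralateral hemisphere, MT genes had higher fitted values in the older rats, short of the threshold and with 0 of 13 under an unadjusted p of 0.05, and single samples of the ages overlapped in Mt-co1 and in the MT share. The median log2 difference was 1.13 with 13 of 13 above 0, or 2.19 or 2.20 by limma on FPKM. It was 0.57 without 13-month contralateral sample 2 and 1.87 without sample 1 of that group, with 13 of 13 above 0 in both. The nuclear median was 0.10 with 54 of 78 above 0, though 37 of 78 with a median of -0.0081 or -0.0079 by limma on FPKM. It was 0.11 with 68 of 78 above 0 without 13-month contralateral sample 2, 0.014 with 40 of 78 without sample 1 of that group, and 0.06 with 45 of 78 without 22-month contralateral sample 3. By edgeR 0 of the 91 passed, where 0.0367% of all genes did, and 10 were under an unadjusted p of 0.05, where 4.08% of all genes were. DESeq2 and limma called 0, where they called 0.199% and 0.0210% or 0.0472% of all genes, with 11 and with 9 or 10 under an unadjusted p of 0.05.

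Atp5i had the largest difference of these 10 nuclear genes. It stood at 76.0, 41.8 and 64.1 CPM in the 13-month contralateral samples and at 98.8, 89.4 and 107 CPM in the 22-month ones. The ages did not overlap, and the lowest value was again 13-month contralateral sample 2. Its log2 difference was 0.70 ± 0.20 (SE), and 0.49 without that sample, and it did not pass the threshold. The others were Ndufa11, Ndufa2, Ndufb10, Ndufb8, Ndufv3, Uqcrb, Cox5b, Atp5e and Atp5l, between 0.30 and 0.52.

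Among single MT genes, Mt-atp6 stood at 8914, 11032 and 12813 CPM in the 22-month contralateral samples, above 8789, 85.0 and 5491 CPM in the 13-month ones. Mt-nd6, the light-strand gene, stood at 206, 195 and 179.5 CPM in the older and 194, 39.0 and 87.8 CPM in the younger, so that the ages overlapped. Without 13-month contralateral sample 2, Mt-atp6 was 0.61 higher on the log2 scale in the older rats and was the 1 MT gene under an unadjusted p of 0.05, beside 4 nuclear ones, Ndufa11, Uqcrfs1, Atp5e and Atp5i. The number of the 91 under an unadjusted p of 0.05 was also 2 without 22-month contralateral sample 3 and 16 without 13-month contralateral sample 3, both with 0 MT genes, 13 with 4 MT genes without 13-month contralateral sample 1, and 5 with 2 MT genes without both libraries that stand apart. Of those under that p by DESeq2 1 was an MT gene, and by limma 1 or 2.

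The markers of striatal projection neurons had higher fitted values in the older rats, short of the threshold. In the contralateral hemisphere 8 of 8 were higher in the older rats, with a median of 1.80, 8 under an unadjusted p of 0.05, a lowest adjusted p of 0.0552, and 0 called by edgeR. Their summed level was 383, 382 and 456 CPM in the younger contralateral samples and 1267, 1524 and 993 CPM in the older. In the ICH hemisphere it was 260, 305 and 410 CPM in the younger and 672, 1670 and 677 CPM in the older, with a median of 1.89, 8 under an unadjusted p of 0.05, a lowest adjusted p of 0.249, and 0 called by edgeR.

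Most markers of oligodendrocytes and microglia had lower fitted values in the older contralateral hemisphere, short of the threshold. Of 7 oligodendrocyte markers 0 were above 0, with a median of -0.58 and 2 under an unadjusted p of 0.05, or -0.23 and 0 without 13-month contralateral sample 2. They summed to 8042, 18882 and 10012 CPM in the younger and 6436, 10007 and 7918 CPM in the older contralateral samples, which overlapped. Of 10 microglia and macrophage markers 1 was above 0, with a median of -0.65 and 1 under an unadjusted p of 0.05, and of 10 infiltrating myeloid markers 1, with a median of -1.31 and 1 under that p. Neuron markers had a median of 0.11 with 10 of 12 above 0, or -0.03 with 4 of 12 without 13-month contralateral sample 2. By edgeR 0 of these markers passed, and their part, like that of the striatal markers, in the differences with age of the oxidative phosphorylation genes was not tested.

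In the ICH hemisphere, MT genes also had higher fitted values in the older rats, short of the threshold. The MT median was 0.41 with 13 of 13 above 0, 0.28 without 22-month ICH sample 2, and 0.26 with 12 of 13 above 0 without 13-month ICH sample 1. The nuclear median was -0.05 with 24 of 78 above 0, or -0.10 or -0.11 with 7 of 78 by limma on FPKM. It was 0.0044 without 13-month ICH sample 3, with 41 of 78 above 0, -0.10 without sample 2 of that group, with 6 of 78, and -0.03 without 22-month ICH sample 3, with 33 of 78. The difference between the age effects of the 2 hemispheres is the contrast tested above, in which 0 of the 91 passed. By edgeR 0 of the 91 passed, where 0.0315% of all genes did, and 1 was under an unadjusted p of 0.05, where 4.94% of all genes were. This was Cox8b at -1.74 ± 0.56 (SE, adjusted p 0.857), with 1.01, 1.61 and 1.80 CPM in the younger and 0.218, 0.215 and 0.862 CPM in the older ICH samples, which did not overlap.

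DESeq2 and limma called 0 of the 91 in this comparison as well, where they called 0.205% and 0.0315% or 0.0367% of all genes, with 1 and with 3 or 2 under an unadjusted p of 0.05. Without 13-month contralateral sample 2, which is in neither group compared here but shares the fit, the number was 4: Cox7b and Cox8b, and the MT genes Mt-nd4 at 0.62 and Mt-cytb at 0.61. Without 13-month ICH sample 1 it was 2.

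Markers in the ICH hemisphere of the older against the younger rats stand beside these values. Choroid plexus markers had a median of -1.77 with 0 of 6 above 0, or -1.22 without 22-month ICH sample 2, microglia and macrophage markers -0.38 with 1 of 10 above 0, or -0.12 with 3, and infiltrating myeloid markers -1.15 with 1 of 10, or -0.85 with 2. Neuron markers had 0.17 with 12 of 12 above 0, or 0.01 with 6 of 12 without that sample, and ribosomal protein genes -0.24 with 10 of 99, or -0.09 with 15. Under an unadjusted p of 0.05 with all samples were 1, 0, 0, 1 and 4 of these genes in turn, 0 passed by edgeR, and their part in the values of the oxidative phosphorylation genes was not tested.

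Variation between samples of the same group set the MT genes apart from the nuclear ones. The median within-group SD of log2 CPM was 1.55 for the 13 MT genes and 0.155 for the 71 nuclear genes with a mean of at least 10 CPM, beside 0.224 for all 10278 such genes. Without 13-month contralateral sample 2 these were 0.320, 0.118 and 0.197. The median SD of the nuclear genes was thus below that of all genes over this minimum, and that of the MT genes above it. This held with and without that sample, but the genes were not matched for level and no test was made.

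The nuclear genes went both ways in their correlation with the MT level across samples. Over the 11 samples without 13-month contralateral sample 2, the 71 nuclear genes ran from -0.839 to 0.678. Medians near 0 therefore do not say whether they follow the MT genes. Over 12 samples the median Pearson correlation of the 71 nuclear genes with the MT level was 0.0257, beside 0.0280 for 10162 nuclear protein-coding genes, and without 13-month contralateral sample 2 it was 0.102 and 0.0533. The 5 genes most like the MT genes over 12 samples were Hcfc1r1 at 0.971, Cbll1 at 0.964, Ube2d1 at 0.962, Mrps36, a mitochondrial protein gene, at 0.959, and Cox7b at 0.955. Over the 11 samples without 13-month contralateral sample 2 their correlations were 0.643, 0.422, 0.685, 0.324 and 0.0417, and the 5 highest were Tspy26 at 0.941, Nos1 at 0.940, Grik2 at 0.927, Aldh5a1 at 0.920 and Vtn at 0.920. These are descriptions over samples that share groups, and nothing is read from them about shared control.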

How the data were processed

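RNA of 12 brain samples in 4 groups of 3 was used. The authors deposited read counts per gene (reads with 1 location only) and FPKM values for 24102 and 24099 genes; the submitters' processing notes name TopHat2 and the genome build Rnor_6.0. Another 8 columns, named as a replicate 4 of each group in the counts and in the FPKM values, match no described sample and were not used. Genes with at least 10 reads over the 12 samples were fitted with edgeR 4.0.16 in R 4.3.3 (TMM, quasi-likelihood, prior count 0.125, 4 group means), with Benjamini-Hochberg adjustment over all genes and a threshold of 0.05. The code was run on simulated counts with planted log2 changes of at least 1, the same dispersion for all genes and no outlying library. That run does not show how well smaller differences, or those of the MT genes, could be found. P-values measure only the spread between samples, which the design text calls biological replicates. This fit took the 12 samples as independent, though both hemispheres of a rat may be among them. The labels do not say which samples share a rat, and a fit with sample number as a block is given with the alternatives.

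Alternatives were DESeq2 1.42.0 and its size factors, limma 3.58.1 on log2 FPKM, other filters, a replicate block, MT genes left out of library sizes, each sample left out, and, chosen after seeing the data, both libraries that stand apart left out. The members and lists were chosen with earlier results of these data known. Named were the MT genes, the most abundant and the highest and lowest nuclear genes of each complex among those with a mean of at least 1 CPM, tissue isoforms, and the 2 largest changes and calls of each list; genes under an unadjusted p of 0.05 were named after their values were seen.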

Additional observations from a re-analysis of the deposited data

Results flagged for a closer look

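The total number of reads in 22-month contralateral sample 2, 41262330, lay far from those of the other 5 contralateral samples, the nearest of which held 26642443. The total in 22-month ICH sample 2, 23814430, lay far below those of the other 5 ICH samples, the nearest of which held 27441008. In all, 8 sets of 6 samples were looked at in this way, 4 measures in each of 2 hemispheres, and chance gives such a distance in about 1 in 20 of them.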

How the results depend on the processing

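Of the results for named genes averaged over both ages, 1567 gene and setting pairs kept their side of the threshold, 169 no longer passed it and 28 newly passed it. Of all 1764 pairs, 80 had the other direction, 0 of them while called. Among the 47 named genes of oxidative phosphorylation 1 of 987 pairs changed side, Ndufa8, and 77 changed direction, 46 of them of MT genes.

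The number of members called at 13 months was 2 by DESeq2, in place of 0. The number called in the average of both ages was 0 to 1 with each sample left out, against 0. In the older against the younger contralateral hemisphere, the nuclear median was -0.0081 and -0.0079 by limma on FPKM with 1 and 0.1 added, against 0.10. With MT genes out of the denominator, the MT share of the 22-month contralateral group was 11.7 reads per 100 other reads, and the nuclear share was 1.41% for 13-month ICH, 1.46% for 22-month contralateral and 1.39% for 22-month ICH. The cause was not tested beyond the settings' own construction.

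By the labels, samples of the 2 hemispheres share only a number: after group means were removed, 5 of 6 same-numbered pairs correlated above 0.1 (2 of 3 at 13 months and 3 of 3 at 22 months) and 11 of 12 samples correlated best with their own number. With the number as a block, 0 members were called in the average, at 13 or at 22 months, with 3, 11 and 0 under an unadjusted p of 0.05, and the MT medians were 0.46, 1.19 and -0.25. For the difference between ages the block called 0 members, with 9 under that p and an MT median of -1.47.

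With all samples, no MT gene's difference could be bounded within 1.5-fold. In the average of both ages, 69 of the 71 nuclear genes with a mean of at least 10 CPM could, with the same 3 samples a group. The median within-group SD of the MT genes was 1.55 on the log2 scale, and 0.320 without 13-month contralateral sample 2. Genes with few reads, such as Cox8b and Cox6b2, had wide intervals.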
